A study of Mus musculus with 17 samples.

Results

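Claudins are the sealing and pore-forming membrane proteins of the tight junction, and 10 claudin genes with a known place along the nephron were followed in whole mouse kidney: Cldn1, Cldn2, Cldn3, Cldn4, Cldn5, Cldn7, Cldn8, Cldn10, Cldn16 and Cldn19. They were taken by gene symbol, and all 10 were found among the 22558 genes used. RNA was sequenced from 17 male mice, 1 library per mouse. The Ctrl group held 5 wild-type C57BL/6 mice, and the Case group held 6 untreated db/db mice (BKS.Cg-Dock7m +/+ Leprdb/J), which lack a working leptin receptor and become obese and diabetic. A further 6 db/db mice formed the Dapa group and were treated with dapagliflozin, which blocks glucose uptake by SGLT2 in the proximal tubule. The daily dose was 1 mg/kg by oral gavage, treatment lasted 6 weeks, and mice were 8 weeks old when it began. Untreated means without the drug, since by the paper the Ctrl and Case mice received saline in the same volume. Every db/db mouse carried the BKS background and no Ctrl mouse did, so genotype and strain cannot be told apart in Case against Ctrl or Dapa against Ctrl. No wild-type mice given the drug were analysed here.

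Each claudin sets which ions and how much water can slip between neighbouring epithelial cells, and the nephron changes its set of claudins from segment to segment. The proximal tubule is leaky to sodium and water, the thick ascending limb lets calcium and magnesium through, and the collecting duct is tight. Since the whole kidney was sequenced, fewer cells of a segment and less RNA per cell cannot be told apart, and summed markers of each segment are therefore given beside the claudins.

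The bases before the start sites are shown for Cldn4, Cldn5 and Cldn7, the members that were higher in both comparisons with Ctrl, and for both starts of Cldn10, whose forms the gene counts do not separate. The sequences are 250 bases long, end 1 base before the start given by RefSeq (GRCm38.p6), and are written 5′ to 3′ on the strand of the gene. Capitals mark matches, on either strand, to the GC box GGGCGG, the TATA box TATAAA, the Grainyhead motif AACCNGTT, the HNF1 half-site GTTAAT and the ETS motif CCGGAAGT.

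Cldn4, chr5:134946935-134947184, - strand: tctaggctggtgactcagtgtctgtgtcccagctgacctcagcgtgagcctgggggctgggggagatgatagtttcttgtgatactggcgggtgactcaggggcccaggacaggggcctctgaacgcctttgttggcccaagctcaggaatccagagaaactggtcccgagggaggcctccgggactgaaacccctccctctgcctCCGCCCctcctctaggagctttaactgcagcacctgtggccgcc

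Cldn5, chr16:18776597-18776846, + strand: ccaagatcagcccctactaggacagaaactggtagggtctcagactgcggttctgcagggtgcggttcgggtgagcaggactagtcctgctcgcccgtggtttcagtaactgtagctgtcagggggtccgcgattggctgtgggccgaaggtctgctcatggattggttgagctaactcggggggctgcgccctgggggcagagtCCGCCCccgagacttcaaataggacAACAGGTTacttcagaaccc

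Cldn7, second start, chr11:69965171-69965420, + strand: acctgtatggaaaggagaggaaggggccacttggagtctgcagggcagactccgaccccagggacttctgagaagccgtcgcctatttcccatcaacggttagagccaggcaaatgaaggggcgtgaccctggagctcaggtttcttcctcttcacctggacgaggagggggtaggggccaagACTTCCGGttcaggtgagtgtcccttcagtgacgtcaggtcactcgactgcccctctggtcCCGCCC

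Cldn10, first start, chr14:118787621-118787870, + strand: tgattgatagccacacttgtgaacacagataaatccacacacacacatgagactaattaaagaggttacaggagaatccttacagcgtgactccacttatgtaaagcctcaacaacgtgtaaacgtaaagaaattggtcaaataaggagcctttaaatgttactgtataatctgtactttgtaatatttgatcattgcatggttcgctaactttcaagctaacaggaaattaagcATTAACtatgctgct

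Cldn10, second start, chr14:118854700-118854949, + strand: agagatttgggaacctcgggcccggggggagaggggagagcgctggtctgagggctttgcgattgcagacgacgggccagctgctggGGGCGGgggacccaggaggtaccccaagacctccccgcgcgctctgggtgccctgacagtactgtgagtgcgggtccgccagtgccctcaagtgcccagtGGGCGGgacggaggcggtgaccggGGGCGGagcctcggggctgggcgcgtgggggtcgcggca

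The set of RefSeq promoters used here held such a stretch for 9 of the 10 members, and none for Cldn8. Of 32851 mouse promoters of this set, 32.7% held the GC box, 12.4% the TATA box, 1.79% the Grainyhead motif, 6.43% the HNF1 half-site and 2.88% the ETS motif. Cldn4 had 1 GC box at -44, and Cldn5 had 1 at -45 with a Grainyhead match at -20. The second start of Cldn7 had a GC box at -6 and an ETS match at -67, and its first start had none of the 5 motifs. The first Cldn10 stretch had 36.0% G and C and an HNF1 half-site at -15, whereas the second had 72.4% G and C and 3 GC boxes, against a median of 52.4% over all promoters. Cldn2 had the TATA box, at -35. A match is a match of letters and shows no binding.

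On mm10, Cldn4 (chr5:134945119-134946934, 1 exon) and Cldn3 (chr5:134986214-134987472, 1 exon) lie 39280 bases apart. Cldn1 (chr16:26356642-26371841) and Cldn16 (chr16:26463135-26482765) lie 91294 bases apart. The others are Cldn5 (chr16:18776847-18778260), Cldn8 (chr16:88560828-88563183), Cldn7 (chr11:69964779-69967885), Cldn10 (chr14:118787908-118875489), Cldn19 (chr4:119255414-119262438) and Cldn2 (chrX:139800828-139811386). No 50-base stretch of any member occurs in the transcripts of another gene. The exons of Cldn3 and Cldn19 overlap the antisense genes Wbscr25 and Gm12927. The libraries were strand-specific, but the strand setting of the counting is not given in the sources used here, so the values of Cldn3 and Cldn19 are uncertain to that extent.

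The libraries held 13039535 to 17779635 gene counts. Some libraries stood apart. The summed FPKM (reads scaled to gene length and library total) of 7 urothelium markers was above 10 in Ctrl 3, Case 3, Case 6 and Dapa 7, 10, 11 and 12, with a maximum of 38.1 in Dapa 11, and was at most 3.24 elsewhere. In Case 3 the sum came mostly from the keratins Krt15 (11.6) and Krt5 (5.21), and its 5 uroplakin genes summed to 2.79 FPKM, near Case 1 (2.74) and Case 2 (2.42), against 8.86 to 34.3 in the other 6 libraries above 10. Results are therefore also given with Case 3 kept and these 6 left out. The uroplakin gene Upk3a, which defines urothelium, was at 0 in Ctrl 1, 2, 4 and 5, Case 4 and 5, and Dapa 8 and 9. Mitochondrial genes took 17.9% to 20.4% of the counts in Ctrl, 19.8% to 27.3% in Case and 19.7% to 27.6% in Dapa. The summed FPKM of 7 thick ascending limb markers came to 578 FPKM in Ctrl 1 and 2954 in Case 3. The adipocyte sum was highest in Ctrl 3 (85.8 FPKM). A group of 7 libraries (Ctrl 1, 3 and 4, Case 1, and Dapa 10, 11 and 12) had FPKM values that departed from the counts by more than 1% in the 3 genes left out and was treated as a possible batch. The kidney markers were present in all libraries, with 2010 to 2252 summed FPKM of 8 proximal tubule markers in Ctrl, 1256 to 2502 in Case and 1456 to 1948 in Dapa.

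Claudin levels differed widely between genes on this length-scaled measure. In the Ctrl group, Cldn2 was highest at 104 ± 58.3 FPKM (mean ± SD, n = 5), followed by Cldn10 at 39.9 ± 2.40, Cldn8 at 22.7 ± 4.16 and Cldn1 at 8.89 ± 1.93. Then came Cldn4 at 5.23 ± 0.776, Cldn16 at 4.26 ± 1.58, Cldn19 at 4.09 ± 2.24, Cldn5 at 3.36 ± 0.537, Cldn3 at 3.07 ± 0.878 and Cldn7 at 2.35 ± 0.303. Each neighbour in this order from Cldn4 down overlapped the next across mice. Cldn2 overlapped Cldn10 too, since 1 Ctrl mouse had far less Cldn2 than the others. Cldn10, Cldn8 and Cldn1 were each above the next gene in every Ctrl mouse. In the Dapa group, Cldn4 (14.9 ± 6.29, n = 6) stood before Cldn1 (11.8 ± 2.91), with overlapping values, while in the Ctrl group every mouse had more Cldn1 than any Ctrl mouse had Cldn4.

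**Figure D1:**
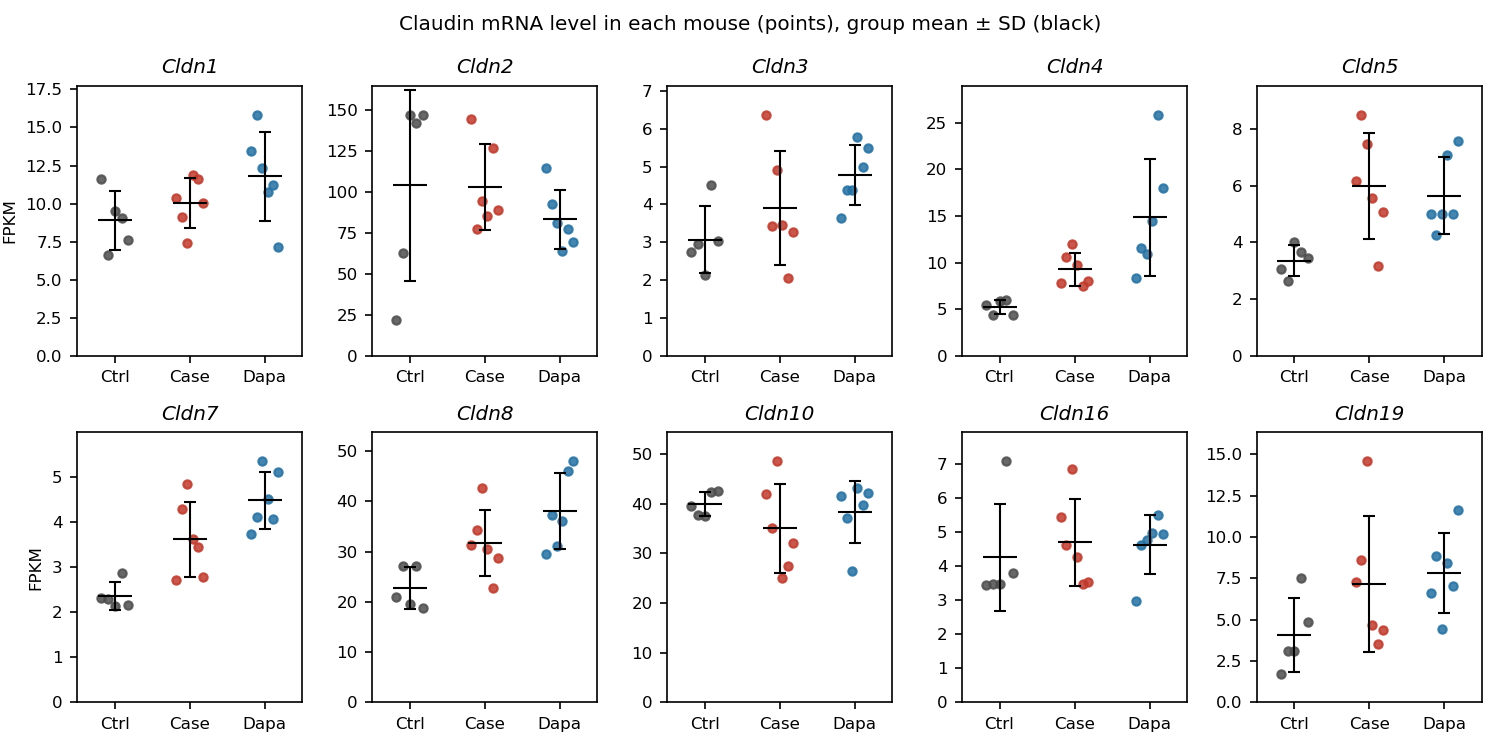
FPKM of the 10 claudins in each mouse (points) by group on the horizontal axis, with the group mean and SD in black and a vertical axis that starts at 0 for each gene. The 6 Case and 6 Dapa mice all lie above the 5 Ctrl mice for Cldn4, while the groups overlap for Cldn2, Cldn10 and Cldn16.

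The first question was how the claudins differ between diabetic and normal kidneys. Among the 10 members, 3 were higher in Case than in Ctrl and none was lower (edgeR quasi-likelihood test, q under 0.05 after Benjamini-Hochberg adjustment over all genes). Over the 14582 genes tested 13.0% were called, 6.09% as higher and 6.91% as lower. At an unadjusted p under 0.05 there were 4 members, against 28.7% of all genes. Without the libraries above 10 FPKM of urothelium markers 1 member was called, which was Cldn4 (0.74, edgeR q = 0.0372), and the same held with Case 3 kept (0.81, edgeR q = 0.02). The median log2 fold change was 0.33 over the members and 0.03 over all genes. By the study's rule for DEGs, which also asks for a fold above 2 in mean FPKM, no member was a DEG, against 3.79% of all genes.

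The claudins of the collecting duct and connecting tubule were Cldn3, Cldn4, Cldn7 and Cldn8. Cldn4, which together with Cldn8 forms a chloride pathway between collecting duct cells and is also a claudin of the urothelium, was at 5.49, 4.43, 5.84, 5.99 and 4.37 FPKM in Ctrl mice 1 to 5. In Case mice it was at 7.51 at the lowest, 8.88 at the median and 12.0 at the highest. All 6 Case mice were above all 5 Ctrl mice, a separation seen upward in 4.97% of all genes (and downward in 3.46%). The log2 fold change was 0.74 ± 0.14 (SE, edgeR q = 0.00591), and it was called in all 11 fits that left out 1 mouse and under all 15 other alternatives, with q between 8.2e-05 and 0.0372. Within the possible batch the difference was 0.36 on the log2 scale (1 Case and 3 Ctrl mice), and outside it 1.00 (5 and 2 mice).

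Cldn7, a claudin of distal and collecting duct epithelium that is found along the lateral membrane as well as at the junction, was at 2.32, 2.29, 2.13, 2.88 and 2.15 FPKM in Ctrl. Case mice ranged from 2.71 over a median of 3.53 to 4.84, and 4 of the 6 lay above every Ctrl mouse. It rose by 0.53 ± 0.15 (edgeR q = 0.0365). This call was lost in 7 of 11 fits that left out 1 mouse (it stayed without Ctrl 4, Case 1, Case 5 or Case 6), with q between 0.0228 and 0.0937, and without the libraries with urothelium markers (0.46, q = 0.153, or 0.55, q = 0.0831, with Case 3 kept). It was also lost with a term for the possible batch (0.48, q = 0.122), with no filter on low counts (0.53, q = 0.051) and with a replicate block (0.56, q = 0.0964). Within the possible batch the difference was 0.08, and outside it 0.64.

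Cldn8, a barrier to cations in the collecting duct, was at 20.9, 27.2, 19.5, 27.2 and 18.7 FPKM in Ctrl and at 22.7, 30.9 and 42.7 (lowest, median and highest) in Case. In 5 of 6 Case mice it was above every Ctrl mouse, but the log2 fold change of 0.40 ± 0.14 did not pass the threshold (edgeR q = 0.0841), and among all alternatives it did so only without Case 5 (q = 0.0296). Cldn3, a sealing claudin of the distal segments, ranged from 2.13 to 4.51 FPKM in Ctrl and from 2.07 to 6.36 in Case and was not called (log2 fold change 0.27 ± 0.27, edgeR q = 0.548).

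Cldn5 is a claudin of endothelial cells. It was at 3.05, 2.63, 4.00, 3.68 and 3.46 FPKM in Ctrl and at 3.18, 5.86 and 8.50 (lowest, median and highest) in Case. Case 5 was the one Case mouse within the Ctrl range. The gene rose by 0.75 ± 0.22 (edgeR q = 0.0395), yet leaving out any mouse other than Case 5 ended the call, and q ran from 0.00735 to 0.0963 over these 11 fits. Without the libraries with urothelium markers it was at 0.79 (q = 0.134, or 0.85, q = 0.0752, with Case 3 kept), with the batch term at 0.83 (q = 0.063), with no filter at 0.74 (q = 0.05), not under the threshold, and with the replicate block at 0.72 (q = 0.132). None of the 9 endothelial markers was called, and their summed FPKM was 73.8 to 128 in Ctrl and 94.2 to 140 in Case. Of 6 podocyte markers 2 were higher (against 13.0% of all genes called). Their summed FPKM was 62.5 to 79.6 in Ctrl and 67.9 to 108 in Case. Which cells the Cldn5 RNA came from was not tested. Within the possible batch the difference of Cldn5 was 0.70, and outside it 0.81.

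The claudins of the proximal tubule and thick ascending limb did not pass the test. Cldn2, the cation and water channel of the proximal tubule, was at 22.0, 63.1, 147, 142 and 147 FPKM in Ctrl mice 1 to 5. Ctrl 1 and Ctrl 2 were thus far below the other 3 Ctrl mice, and 5 of 6 Case mice lay between these sets (range 77.8 to 145, median 91.9). The log2 fold change was -0.08 ± 0.38 (edgeR q = 0.914) and -0.34 without Ctrl 1 (q = 0.42). Cldn10, made as an anion channel in the proximal tubule and as a cation channel in the thick ascending limb, was at 39.6, 37.6, 37.6, 42.3 and 42.5 FPKM in Ctrl and spread from 25.0 to 48.5 in Case. Its log2 fold change was -0.27 ± 0.14 (edgeR q = 0.22), and 4 of 6 Case mice were below every Ctrl mouse.

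Cldn16 and Cldn19 join in the thick ascending limb to make the pathway for magnesium and calcium, and loss of either gene causes renal magnesium wasting. Cldn19 was at 1.74, 3.11, 3.14, 7.55 and 4.89 FPKM in Ctrl and at 3.54 to 14.6 in Case (median 5.97), with a log2 fold change of 0.73 ± 0.38 (edgeR q = 0.226). The highest value was that of Case 3, and the log2 fold change was 0.42 without it (q = 0.45). Cldn16 was at 3.44 to 7.08 in Ctrl and 3.47 to 6.86 in Case (0.06 ± 0.22, edgeR q = 0.883). Neither partner was called, and the difference between them was not tested. Cldn1, the claudin of the parietal cells of Bowman's capsule, was at 6.61 to 11.6 and 7.42 to 11.9 FPKM (0.10 ± 0.17, edgeR q = 0.741).

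**Figure D2:**
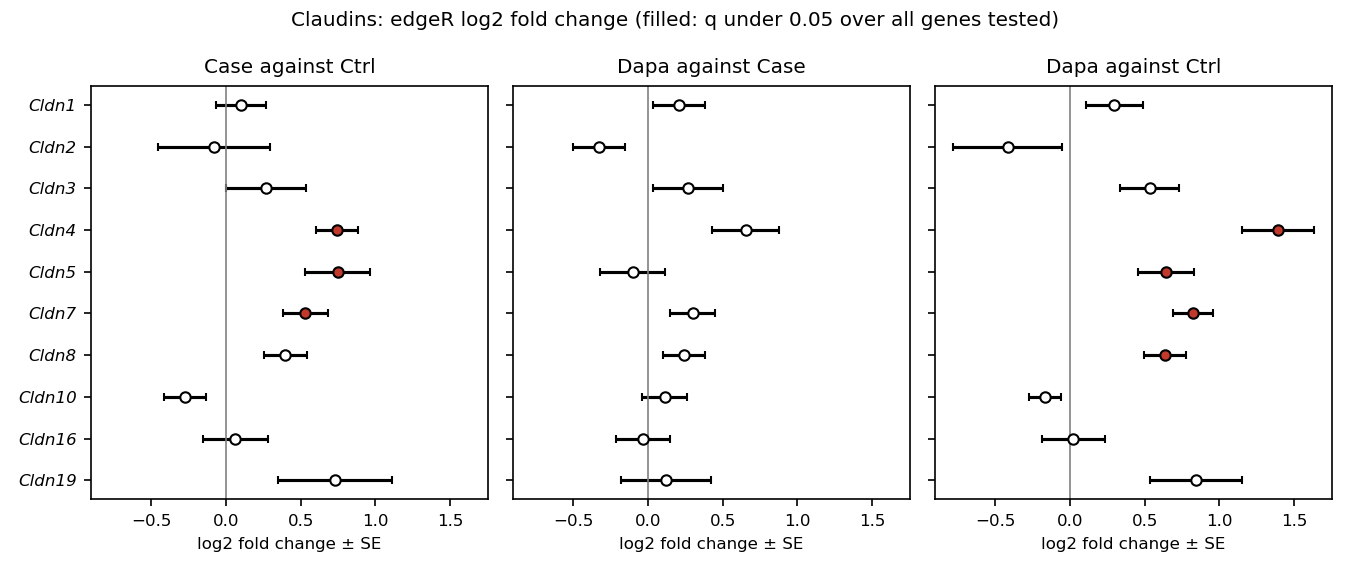
Log2 fold change with its SE (edgeR, TMM) for the 10 claudins in the 3 comparisons, with filled points where q was under 0.05 over all genes tested. Filled points are Cldn4, Cldn5 and Cldn7 in Case against Ctrl, none in Dapa against Case, and Cldn4, Cldn5, Cldn7 and Cldn8 in Dapa against Ctrl.

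The second question was whether the claudins differed between treated and untreated diabetic kidneys. None of the 10 members was called in Dapa against Case, where edgeR called 0.0% of 14573 genes and 12.9% had an unadjusted p under 0.05. The edgeR exact test called 129 genes and DESeq2 208, with no member among them. Among the members 1 had an unadjusted p under 0.05, which was Cldn4. Its FPKM in Dapa mice 7 to 12 was 8.40, 11.6, 10.9, 14.5, 25.8 and 17.9, and the last 3 were above every Case mouse. The log2 fold change was 0.65 ± 0.22 (edgeR q = 0.269). No member had groups without overlap, which 0.316% of all genes had upward and 0.165% downward.

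The size of that difference rested on a pair of libraries. Without Dapa 11 it was 0.45 (edgeR q = 0.503), without Dapa 11 and Dapa 12 it was 0.29 (q = 0.614), and without all libraries above 10 FPKM of urothelium markers it was 0.34 (q = 0.688). Within the possible batch it was 1.20 (3 Dapa mice and 1 Case mouse) and outside it 0.11 (3 and 5 mice). Dapa 11 and Dapa 12 also had the most summed FPKM of 9 markers of connecting tubule and principal cells (505 and 599, against 332 to 414 in the other Dapa mice). The water channel gene Aqp2 was at 158 and 195 FPKM in them, against 47.1 to 84.9. The part of cell composition in the Cldn4 values was not tested. In the 8 libraries with Upk3a at 0, Cldn4 was at 4.37 to 5.99 FPKM in Ctrl, at 9.77 and 7.51 in Case 4 and 5, and at 11.6 and 10.9 in Dapa 8 and 9.

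Of the remaining members, Cldn2 was at 63.9 to 115 FPKM in Dapa (median 79.6), with a log2 fold change from Case of -0.33 ± 0.18 (edgeR q = 0.433). Cldn7 was at 3.72 to 5.34 (0.30 ± 0.15, edgeR q = 0.408). Cldn8 was at 29.5 to 47.9 (0.24 ± 0.14, edgeR q = 0.473) and Cldn3 at 3.63 to 5.78 (0.27 ± 0.23, edgeR q = 0.645). For Cldn1, Cldn5, Cldn10, Cldn16 and Cldn19 the log2 fold changes lay between -0.10 and 0.21, with edgeR q between 0.635 and 0.95.

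Against Ctrl, 4 members were higher in Dapa and none was lower, where edgeR called 29.1% of 14647 genes, 14.2% as higher and 14.9% as lower. At an unadjusted p under 0.05 there were 6 members, against 41.1% of all genes. This comparison shares the Ctrl mice with the first. The median log2 fold change was 0.58 over the members and 0.02 over all genes. The 4 members were Cldn4 (1.39 ± 0.24, edgeR q = 0.00162), Cldn7 (0.82 ± 0.13, q = 0.00115), Cldn8 (0.63 ± 0.14, q = 0.00584) and Cldn5 (0.64 ± 0.19, q = 0.0214). For each of them all 6 Dapa mice lay above all 5 Ctrl mice, which was so for 9.79% of all genes, with 4.74% separated downward. The mean FPKM of Cldn4 was 2.85 times that of Ctrl, and it was the 1 member that was a DEG, against 7.18% of all genes.

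Cldn4 and Cldn7 were called in all 11 fits that left out 1 mouse and under all 14 other alternatives. Without Dapa 11 and 12, Cldn4 was at 1.04 (edgeR q = 0.00349), Cldn7 at 0.83 (q = 0.00521) and Cldn8 at 0.48 (q = 0.025), while Cldn5 was not called (0.58, q = 0.0568). Without the libraries above 10 FPKM of urothelium markers, Cldn4 (1.08, q = 0.0133) and Cldn7 (0.90, q = 0.0295) were called and Cldn8 (0.47, q = 0.114) and Cldn5 (0.46, q = 0.245) were not. The call of Cldn5 was also lost without Ctrl 2 (q = 0.0508). Within the possible batch (3 and 3 mice) the differences were 1.56 for Cldn4, 0.75 for Cldn7, 0.81 for Cldn8 and 0.71 for Cldn5, and outside it (3 and 2 mice) they were 1.11, 0.85, 0.44 and 0.55.

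Cldn19 and Cldn3 were close to the threshold. Cldn19 in Dapa mice was at 4.47 to 11.7 FPKM (median 7.73), and 3 of 6 were above every Ctrl mouse (0.84 ± 0.31, edgeR q = 0.0541). Cldn3 was 0.53 ± 0.20 higher on the log2 scale (edgeR q = 0.0567). Both were called with DESeq2, limma, upper quartile scaling or a minimum of 10 counts in every library, and without Ctrl 4. With a term for the possible batch Cldn3 was called (0.55, edgeR q = 0.0487) and Cldn19 was not (q = 0.0532). The edgeR exact test and the fit without mitochondrial genes called Cldn19 and not Cldn3. Cldn2 was at -0.42 ± 0.36 (edgeR q = 0.415) and at -0.66 without Ctrl 1 (q = 0.0534). Cldn10 (-0.17 ± 0.11), Cldn1 (0.30 ± 0.19) and Cldn16 (0.02 ± 0.21) had edgeR q between 0.252 and 0.947.

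The counts of segment markers are to be read against the share of all genes called, 13.0% in Case against Ctrl and 29.1% in Dapa against Ctrl. Of 9 markers of connecting tubule and principal cells, 3 were higher in Case (led by Calb1, the calcium buffer calbindin, and Scnn1b, a sodium channel subunit) and 5 in Dapa against Ctrl. Their summed FPKM was 176 to 241 in Ctrl, 265 to 385 in Case and 332 to 599 in Dapa, with no overlap between Ctrl and the others. Of 8 proximal tubule markers 2 were lower in Case (Lrp2 and Slc22a6) and 6 in Dapa against Ctrl. Of 7 thick ascending limb markers Egf was lower in Case, and Ptger3 and Ppp1r1a were higher in Dapa than in Ctrl. Their summed FPKM was 578 to 1800 in Ctrl, 880 to 2954 in Case and 1250 to 2081 in Dapa. Of 9 endothelial markers 1 (Eng) was higher in Dapa than in Ctrl, and of 6 podocyte markers 2 were higher in Case (Nphs1 and Podxl) and 3 in Dapa against Ctrl. No gene of these lists was called in Dapa against Case.

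Each claudin was also set against a marker list, as log2 of its FPKM over the summed FPKM of the list, 1 value per mouse, in 30 unadjusted exact two-sided permutation tests. Cldn2 was set against the proximal tubule list, Cldn10, Cldn16 and Cldn19 against the thick ascending limb, Cldn3, Cldn4, Cldn7 and Cldn8 against the connecting tubule and principal cells, and Cldn5 against the endothelium. Cldn1 was set against the podocyte list, which is of the glomerulus but not of the parietal cells. A sum is carried by its most abundant genes (Calb1 alone was at 48.3 FPKM in Ctrl and 147 in Case on average), so the ratios were also taken to the mean of the log2 values of the list. In Case against Ctrl 2 of 10 ratios had p under 0.05. Cldn4 relative to the principal cell list was -5.28 ± 0.28 (SD, n = 5) in Ctrl and -5.22 ± 0.26 (n = 6) in Case (difference 0.06, exact permutation p = 0.719). With the mean of logs the difference was 0.48 (exact permutation p = 0.0108), so whether Cldn4 differed relative to these markers depended on how they were averaged. Cldn7 (-0.17, exact p = 0.281) and Cldn8 (-0.29, exact p = 0.11) had lower ratios that did not pass the test, and with the mean of logs both differences changed sign (0.25 and 0.13).

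Cldn5 relative to endothelial markers was higher in Case by 0.55 (exact permutation p = 0.0476), with 0.78 inside the possible batch and 0.70 outside it. Its exact p was under 0.05 in 2 of the 11 sets that left out 1 mouse, those without Case 5 or Ctrl 3, and ran up to 0.111. Cldn10 relative to the thick ascending limb list was -4.70 ± 0.55 in Ctrl and -5.50 ± 0.42 in Case (difference -0.80, exact permutation p = 0.0238). It was lower in both parts of the batch division (-1.29 and -0.61), and its exact p was above 0.05 only without Ctrl 1 (0.0524). Cldn10 is made in the proximal tubule as well, which that list leaves out. In Dapa against Ctrl the difference for Cldn10 was -0.68 (exact permutation p = 0.0195), for Cldn8 -0.31 (p = 0.0195) and for Cldn3 -0.38 (p = 0.0368), while Cldn19 was higher by 0.45 (p = 0.0325). These 4 kept their sign inside and outside the possible batch (-0.71 and -0.62, -0.39 and -0.22, -0.48 and -0.28, 0.58 and 0.31). For Cldn10 and Cldn8 p stayed under 0.05 in all 11 sets without 1 mouse. For Cldn19 it did in 6 (not without Ctrl 1, 2 or 3 or Dapa 11 or 12, up to an exact p of 0.0571), and for Cldn3 in 4 (those without Ctrl 2 or 3 or Dapa 8 or 10, up to 0.081). With the mean of logs Cldn10 was at -0.62 (exact p = 0.00866) and Cldn19 at 0.51 (exact p = 0.0216), but Cldn8 was at -0.046 (exact p = 0.751) and Cldn3 at -0.12 (exact p = 0.535). Cldn4 was at 0.38 (exact permutation p = 0.0758) with the sum and at 0.64 (exact permutation p = 0.0195) with the mean of logs. In Dapa against Case no ratio had p under 0.05, and Cldn4 was at 0.32 (exact permutation p = 0.0844). None of the p-values above would pass a correction over all 30 tests. The smallest p that these designs can give is 0.00216, so no single ratio could have passed a Bonferroni correction, whatever its values.

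**Figure D3:**
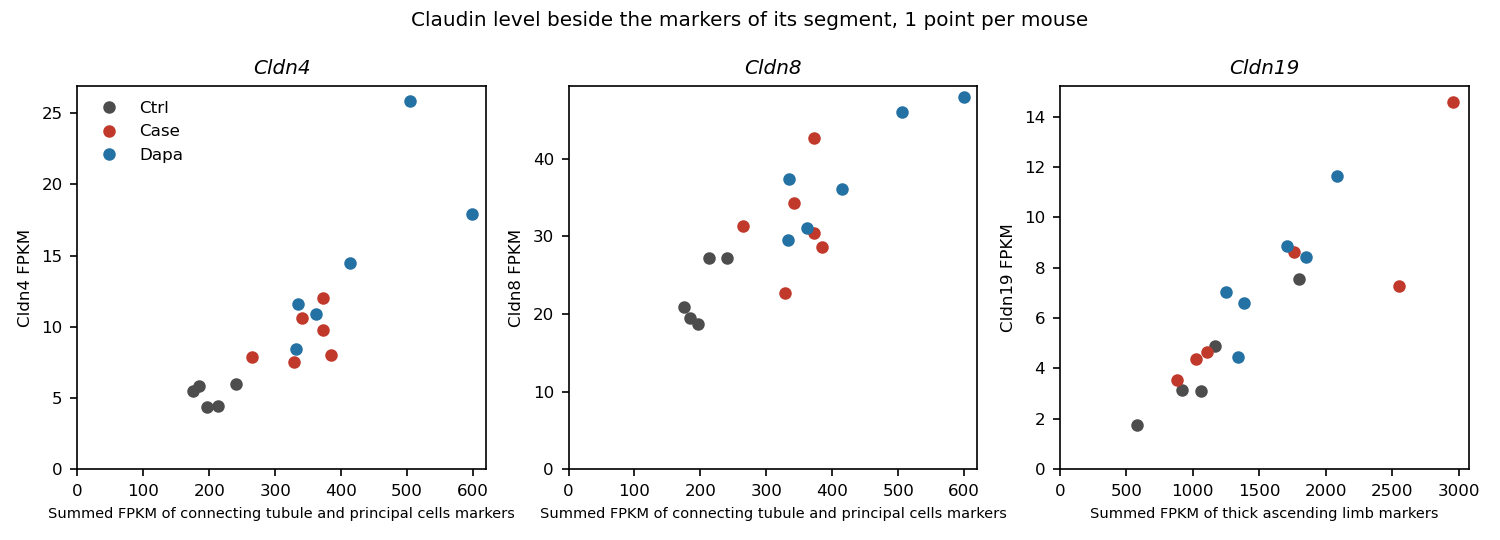
FPKM of Cldn4, Cldn8 and Cldn19 (vertical axes) against the summed FPKM of the markers of their segment (horizontal axes), 1 point per mouse, coloured by group. For Cldn4 the Ctrl points lie at 176 to 241 summed FPKM and below 6 FPKM of Cldn4, and Dapa 11 and 12 lie at 505 and 599 with 25.8 and 17.9 FPKM of Cldn4.

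Correlations of 5 pairs of claudins were computed across mice after the group mean was removed (log2 of TMM-scaled FPKM, 17 mice, permutation tests within groups). The thick ascending limb partners Cldn16 and Cldn19 varied together (Pearson r = 0.69, permutation q = 0.0167 over the 5 pairs, p = 0.00669; Spearman rho = 0.62, p = 0.0171). Without Ctrl 4 and Dapa 7, the mice farthest from the median of Cldn16, r was 0.67 (permutation q = 0.0472). It was 0.80 within the possible batch (6 mice) and 0.65 outside it (10 mice). Case 1, the single Case mouse of the possible batch, has no group mean there and is in neither value. Cldn4 and Cldn8 varied together as well (r = 0.67, permutation q = 0.0167, p = 0.0039; rho = 0.69, p = 0.0053), with r = 0.60 without Dapa 11 and 12 (permutation q = 0.0472), 0.39 within the possible batch and 0.78 outside it.

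The neighbours Cldn3 and Cldn4 gave r = 0.28 (permutation p = 0.198, q = 0.248; rho = 0.39, p = 0.132), and the sign was not shared within the possible batch (-0.31) and outside it (0.84). Cldn7 and Cldn8 gave r = 0.40 (permutation p = 0.147, q = 0.244; rho = 0.32, p = 0.255), with 0.57 and 0.49. Cldn2 and Cldn10 gave r = -0.01 (permutation p = 0.926, q = 0.926; rho = -0.03, p = 0.913), with -0.43 and 0.11. Leaving out the 2 farthest mice gave r = 0.38, 0.35 and 0.08 for these 3 pairs. Mice of a group share the strain and treatment, and the library's tissue makeup enters both values of a pair.

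By the same within-group measure over 17 libraries, the genes most like each claudin among genes of at least 1 FPKM included, as a description, Krt18 (r = 0.87) and Agpat2 (0.851) for Cldn4. For Cldn19 they were Irx1 (0.952), Nudt4 (0.949) and Pak6 (0.945), and for Cldn16 B4galnt1 (0.891), Arhgef37 (0.889) and Arrdc1 (0.853). For Cldn8 they were Cpne8 (0.898), Slc12a4 (0.884) and Mal (0.884), for Cldn7 Fam160a1 (0.813), Olfm1 (0.787) and Stk10 (0.755), and for Cldn3 Grrp1 (0.884), Mprip (0.877) and Adgrg3 (0.859). For Cldn1 they included Cda (0.877) and Sh3bp5 (0.876). They were for Cldn2 Serpina1c (0.815), Dnase2a (0.79) and Epc2 (0.78), for Cldn10 Ccdc64 (0.872), Npnt (0.859) and Sh2d4a (0.857), and for Cldn5 Msantd2 (0.92), Aspn (0.865) and Tmx4 (0.856).

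Around the 10 members, the rest of the junction was examined. There were 15 other claudin family genes, of which 5 were tested in Case against Ctrl. Of these 5, 1 was called, against 13.0% of all genes. In Dapa against Ctrl 5 were tested and 1 was called, against 29.1% of all genes. Cldnd1, a claudin domain protein, was lower in Case (-0.44 ± 0.13, edgeR q = 0.0395) and in Dapa against Ctrl (-0.41 ± 0.14, edgeR q = 0.0439). The most abundant of these genes were Cldn12, at 5.96 ± 1.81, 4.27 ± 1.87 and 6.60 ± 1.17 FPKM in Ctrl, Case and Dapa, Cldnd1, at 5.66 ± 0.875, 4.43 ± 0.743 and 4.60 ± 0.918, and Cldn15, at 2.26 ± 0.153, 3.69 ± 1.34 and 3.68 ± 1.44. Cldn15 was not called (edgeR q = 0.0571 in Case against Ctrl).

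Of 28 partners of the claudins in the junction (occludin, the ZO scaffolds, angulins, JAMs and polarity proteins) none was called in Case against Ctrl, against 13.0% of all genes. In Dapa against Ctrl 4 were higher and 4 lower. Higher were Ildr1, an angulin of tricellular junctions (0.85 ± 0.18, edgeR q = 0.00423), Tjp3, encoding ZO-3 (0.70 ± 0.21, q = 0.0242), Tjp1, encoding ZO-1 (0.45 ± 0.12, q = 0.014), and Arhgef2 (0.40 ± 0.11, q = 0.0185). Lower were Marveld3, a relative of occludin (-0.45 ± 0.14, q = 0.0319), Ildr2 (-0.40 ± 0.11, q = 0.0197), Pard6b (-0.27 ± 0.09, q = 0.0324) and Prkcz (-0.27 ± 0.09, q = 0.0493). The 8 calls make 28.6% of the list, near the 29.1% of all genes.

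Of 10 genes known to regulate claudins 1 was called in Case against Ctrl (10.0%, against 13.0% of all genes) and 6 in Dapa against Ctrl (60%, against 29.1%), 4 higher and 2 lower. Vdr, the vitamin D receptor, was lower in Case (-0.61 ± 0.18, edgeR q = 0.0429) and in Dapa against Ctrl (-0.40 ± 0.12, q = 0.0223). Against Ctrl, Grhl2, a Grainyhead-like transcription factor of the collecting duct, was higher in Dapa (0.79 ± 0.24, edgeR q = 0.026), as were the kinases Wnk4 (0.54 ± 0.15, q = 0.0175) and Wnk1 (0.26 ± 0.08, q = 0.0218) and the ubiquitin ligase adaptor Klhl3 (0.29 ± 0.09, q = 0.0238). Hnf4a, a factor of proximal tubule cells that is also in the proximal tubule list, was lower (-0.57 ± 0.14, edgeR q = 0.00883). Wnk4 is likewise in the distal convoluted tubule list, so these calls are also counted in the marker lists. In Case, Grhl2 was at 0.78 ± 0.30 (edgeR q = 0.105). None of these lists had a call in Dapa against Case.

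**Figure D4:**
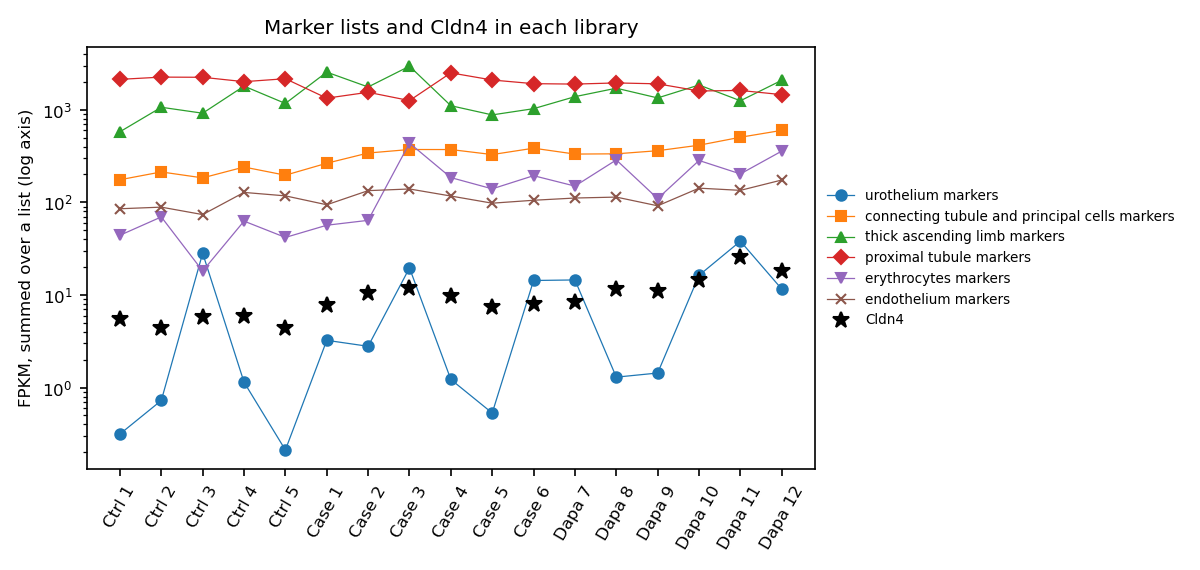
Summed FPKM of 6 marker lists and FPKM of Cldn4 (stars) in each of the 17 libraries, on a log axis. Dapa 11 has the highest urothelium sum (38.1) and the highest Cldn4 (25.8), while Ctrl 3 has a urothelium sum of 28.2 and 5.84 FPKM of Cldn4.

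Markers of other cell types are given as calls in Case and in Dapa against Ctrl, beside the 13.0% and 29.1% of all genes. All 5 erythrocyte markers were higher in Case and in Dapa than in Ctrl. Of 7 intercalated cell markers 3 and 5 were higher, of 5 distal convoluted tubule markers 1 and 3, and of 9 tubular injury genes tested 4 and 4, among them Clu and Spp1. Of the urothelium list 3 genes were tested in Case against Ctrl with no call, and 7 in Dapa against Ctrl with 1 call (Krt15). Macrophage markers gave no call, as did the 1 adipocyte marker tested, and the largest macrophage sum (193 FPKM) was that of Case 3. Their part in the claudin values was not tested. Ctrl 3 had a urothelium sum of 28.2 FPKM and a Cldn4 level (5.84) within the range of the other Ctrl mice.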

How the data were processed

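Whole-kidney RNA of 17 mice was sequenced. The authors aligned reads to mm10 with HISAT2 and counted them with Stringtie, and they deposited for each gene a read count and an FPKM value. In genes with over 20 counts in every library the deposited FPKM was the count over the library total times 1 constant per gene, to within 0.00333%, so no TMM factor is in it. Genes spread over 2 lines (3 of 22561) were left out. Per mouse 13039535 to 17779635 counts were assigned to genes, so genes with few counts have a large counting error. No libraries were duplicates (lowest chi-square per gene 15.0). The annotation and the strand setting of the counting are not given in the sources used here. The labels do not say whether mice shared a litter or cage.

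Groups were those of the labels. Counts were compared with edgeR 4.0.16 in R 4.3.3 (TMM, filterByExpr, quasi-likelihood test, Benjamini-Hochberg over all genes, 2 groups per fit). All 10 members passed the filter. Ratios and correlations used exact or 100000-fold permutation tests, in Python 3.11.15 with scipy 1.17.1. Gene models were checked against GENCODE M21 transcripts, and promoters were those of RefSeq. The fits were tested on simulated data. The members and all lists were chosen with earlier results of these data known. Named genes were all members, called genes of the 3 junction lists (up to 4 in each direction), the 3 most abundant other claudins, up to 2 leading genes of a marker list with the smallest q, and the 3 genes most like each member (for Cldn1 and Cldn4, 1 of the 3 is not reported here). Egf, Upk3a, Krt5 and Aqp2 were named beside a result that they touch, and Cldn11 and Cldn18 after their values were seen. The alternatives were DESeq2 1.42.0, limma 3.58.1 on log2(FPKM + 1) and log2(FPKM + 0.1), the edgeR exact test, scaling by RLE or upper quartile, testing all genes or those with 10 or more counts throughout, removing mitochondrial genes, a batch term, 1 fit of all groups, a block for replicate number, and leaving out mice in turn. Leaving out Dapa 11 and 12, libraries with urothelium markers above 10 FPKM, or libraries with uroplakins above 5 FPKM, was chosen after seeing the data.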

Additional observations from a re-analysis of the deposited data

Results flagged for a closer look

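Of 30 sets of values (10 claudins in 3 groups) 4 had an extreme mouse by Dixon's criterion, which chance gives in about 1 of 20 sets. Cldn7 was at 2.88 FPKM in Ctrl 4, the highest of the Ctrl group, whose other mice were at 2.13 to 2.32. Cldn16 was at 7.08 FPKM in Ctrl 4, against 3.44 to 3.82 in the others, and Ctrl 4 also had the most Cldn19 and Cldn3 of its group. Cldn10 was at 26.4 FPKM in Dapa 9, the lowest of the Dapa group, whose other mice were at 37.1 to 43.2. Cldn16 was at 2.99 FPKM in Dapa 7, against 4.63 to 5.50 in the other Dapa mice.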

How the results depend on the processing

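The number of claudins called in Case against Ctrl (3) was 1 with no filter on low counts, 1 with a term for the possible batch, 1 with the replicate number as a block and 1 without the libraries with urothelium markers or with uroplakins (Case 3 kept), and the gene that remained was Cldn4 in each. It was 1 to 4 when each mouse was left out in turn. The replicate numbers did not pair the mice (correlations of deviations between -0.0594 and -0.0405 for the 5 shared numbers). In the blocked fit 699 genes were called, against 1615 in the same 10 mice without the block, where 2 members were called. In Dapa against Ctrl the number (4) was 2 without the libraries with urothelium markers or with uroplakins, which are the same there, and 3 to 6 when each mouse was left out, and in Dapa against Case it was 0 throughout. Upper quartile scaling, a minimum of 10 counts in every library, DESeq2 and limma each called 6 in Dapa against Ctrl, and the batch term, the edgeR exact test and the fit without mitochondrial genes each called 5. The number of ratios to segment markers with p under 0.05 ranged over the fits without 1 mouse from 0 to 3 in Case against Ctrl, 0 to 1 in Dapa against Case and 2 to 4 in Dapa against Ctrl.

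Changes of sign were of values that passed no test. Some lay between the parts of the batch division. For Cldn1 in Dapa against Ctrl the log2 difference was -0.20 inside the possible batch and 0.87 outside it, and the ratio -0.60 and 0.62. The Cldn3 ratio in Case against Ctrl was 0.68 inside it (1 Case mouse) and -0.67 outside it. The log2 fold change of Cldn2 in Case against Ctrl became 0.0085 with the batch term, 0.24 and 0.25 with limma, 0.10 with the replicate block and 0.16 without the libraries with urothelium markers (0.11 with Case 3 kept). Without these libraries Cldn16 became -0.070 in Case against Ctrl and 0.091 in Dapa against Case, and Cldn10 -0.023 in Dapa against Case. With Case 3 kept, Cldn10 was at -0.14 and Cldn19 at -0.19 in Dapa against Case. Without Dapa 11 and 12 Cldn19 became -0.0069 in Dapa against Case and Cldn16 -0.044 in Dapa against Ctrl. With a mean of logs of the markers the ratios became 0.25 for Cldn7 and 0.13 for Cldn8 in Case against Ctrl, -0.085 for Cldn3, -0.11 for Cldn7 and -0.043 for Cldn10 in Dapa against Case, and 0.034 for Cldn1 and 0.14 for Cldn7 in Dapa against Ctrl. With it the ratio of Cldn4 passed 0.05 in both comparisons with Ctrl, and those of Cldn3 and Cldn8 no longer did in Dapa against Ctrl. The correlation of Cldn2 and Cldn10 became 0.071 without the TMM factor and 0.084 without the 2 farthest mice. The causes were not tested. With 1 mouse left out, the log2 fold change of Cldn2 in Case against Ctrl ranged from -0.34 to 0.085, and that of Cldn16 from -0.063 to 0.30 there, from -0.11 to 0.084 in Dapa against Case and from -0.029 to 0.26 in Dapa against Ctrl. In Dapa against Case Cldn5 ranged from -0.23 to 0.024 and Cldn19 from -0.024 to 0.43. The ratios ranged from -0.023 to 0.13 for Cldn4 in Case against Ctrl, and in Dapa against Case from -0.011 to 0.29 for Cldn1, -0.077 to 0.31 for Cldn3, -0.052 to 0.13 for Cldn7, -0.094 to 0.060 for Cldn8 and -0.16 to 0.045 for Cldn16. In Dapa against Ctrl they ranged from -0.18 to 0.12 for Cldn1 and from -0.20 to 0.49 for Cldn2. The lowest counts were those of Cldn3 (41 to 114 per library), where counting error is largest.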

Other observations

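Cldn11, which is not among the 10 claudins and was named after its values were seen, was nearly absent from most libraries. It had 0 to 8 counts in Ctrl, 0 to 7 in Case and 0 to 13 in Dapa 7 to 10, but 131 counts (5.17 FPKM) in Dapa 11 and 84 counts (3.44 FPKM) in Dapa 12, the libraries with the most Cldn4. Cldn18 had 2 to 13 counts in the Ctrl mice, 0 or 1 in the Case mice and 0 to 3 in the Dapa mice, which is too few for a statement on its level.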
